A study of Mus musculus with 2 samples.

Results

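The excitatory nuclei described here hold RNA of Htr1f, Hs3st4 and, in most, Foxp2, a combination known from the deepest layer of the neocortex. They were chosen by expression in 2 libraries of single-nucleus RNA sequencing of mouse hippocampus, and they number 537 of 22389 deposited nuclei, with 243 of 11469 in the PS19 library and 294 of 10920 in the PZKO library. A nucleus was taken when it held at least 3000 UMIs (unique molecular identifiers, each standing for 1 captured RNA molecule) with at most 5% of them from mitochondrial genes, and at least 3 UMIs over the excitatory genes Slc17a7, Slc17a6, Camk2a, Neurod2 and Neurod6. Per 10000 UMIs it also had to hold at least 5 of Foxp2 and Htr1f together and at least 10 of Hs3st4, under 10 of Tshz2, under 8 of the dentate granule cell genes Prox1, Trpc6, Dsp and C1ql2 together, and under 3 of the interneuron genes Gad1 and Gad2 together. These genes chose the nuclei, so their levels are given as a description.

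Both libraries came from male mice at 9 months of age that carry the PS19 transgene, a human tau gene with the P301S change driven by the mouse prion protein promoter. PS19 mice were wild type for Zbp1 (PS19 Zbp1-WT), and PZKO mice carried a constitutive Zbp1 knockout (PS19 Zbp1-KO). Both groups carry the transgene, so everything described is within mice that express mutant tau. Each genotype is 1 library of pooled hippocampi, so a difference between genotypes has no replicate check, cannot be told apart from a difference between 2 libraries, and is given without a test, and every interval below covers counting error only.

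Corticothalamic neurons of neocortical layer 6 send their axons to the thalamus and return feedback to the nuclei from which the cortex receives sensory input. They are recognised by the transcription factors Foxp2, Tle4 and Tbr1 together with the synaptotagmin Syt6. Below them lies layer 6b, a thin sheet of neurons left from the embryonic subplate and marked by Ccn2, Cplx3 and Moxd1. Foxp2 is a forkhead repressor best known for its part in speech and vocal learning, Htr1f is an inhibitory serotonin receptor, and Hs3st4 adds sulfate to heparan sulfate chains.

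Of the PS19 nuclei, 8164 passed the depth and mitochondrial limits, 3644 were excitatory and under the Gad limit, 494 passed the limit on Foxp2 and Htr1f and 316 the limit on Hs3st4. The same counts in PZKO were 8679, 4120, 630 and 394. The Tshz2 limit then removed 73 PS19 and 100 PZKO nuclei, and the dentate limit removed none of those that were left. The selected nuclei were 6.67% of excitatory nuclei in PS19 (95% exact binomial interval 5.88 to 7.53) and 7.14% in PZKO (6.37 to 7.96), and these intervals overlap. The shares depend on the limits, and with Foxp2 alone in place of Foxp2 and Htr1f they were 2.85% and 3.71%. The selected nuclei were deep: the median nucleus held 19630 UMIs and 5038 genes in PS19, and 27929 UMIs and 5835.5 genes in PZKO, over totals of 5154451 and 8539273 UMIs. Depth therefore differed between the libraries in the same direction for these nuclei as for the other 3401 PS19 and 3826 PZKO excitatory nuclei, whose medians were 17785 and 25724 UMIs. The libraries shared 47 cell barcodes, and 1 barcode belonged to a selected nucleus in both.

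Hs3st4 (chromosome 7, 123982869 to 124398989, mm10) had a median of 24.3 UMIs per 10000 in PS19 nuclei and 26.9 in PZKO nuclei, with a lowest value of 10.3 and 10.6 and a highest of 58.4 and 60.7. Foxp2 (chromosome 6, 14901349 to 15441977) had medians of 4.55 and 5.17, and 15 PS19 and 13 PZKO nuclei held no Foxp2 UMI at all and entered through Htr1f. Htr1f (chromosome 16, 64924729 to 65105854) had medians of 6.49 and 6.97 and was found in every selected nucleus. Foxp2 reached 5 per 10000 by itself in 42.8% of PS19 and 52.0% of PZKO nuclei, while Htr1f did so in 71.6% and 76.5%, so more nuclei entered by Htr1f than by Foxp2.

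Tle4, Garnl3 and Thsd7b, which the rule did not use, were lower just outside the limits on Foxp2 with Htr1f and on Hs3st4 than just inside them in both libraries. Zfpm2 and Foxp1 each went the other way once in PZKO, Zfpm2 with 11.7 per 10000 outside and 10.5 inside the first limit and Foxp1 with 6.22 outside and 6.01 inside the second. Between 4 and 5 UMIs per 10000 of Foxp2 and Htr1f, just outside, lay 26 PS19 and 27 PZKO nuclei with Tle4 at 3.05 and 4.67 per 10000. Between 5 and 6, just inside, lay 16 and 15 nuclei with Tle4 at 5.34 and 6.04. Just under the Hs3st4 limit, 8 PS19 and 6 PZKO nuclei had Tle4 at 1.66 and 1.23, against 2.52 in 9 and 3.13 in 6 nuclei just above it. Around the Tshz2 limit the libraries differed in direction: Tle4 was at 8.17 and 4.91 in the 9 and 11 nuclei inside and at 6.67 and 6.94 in the 8 and 11 nuclei outside.

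**Figure D1:**
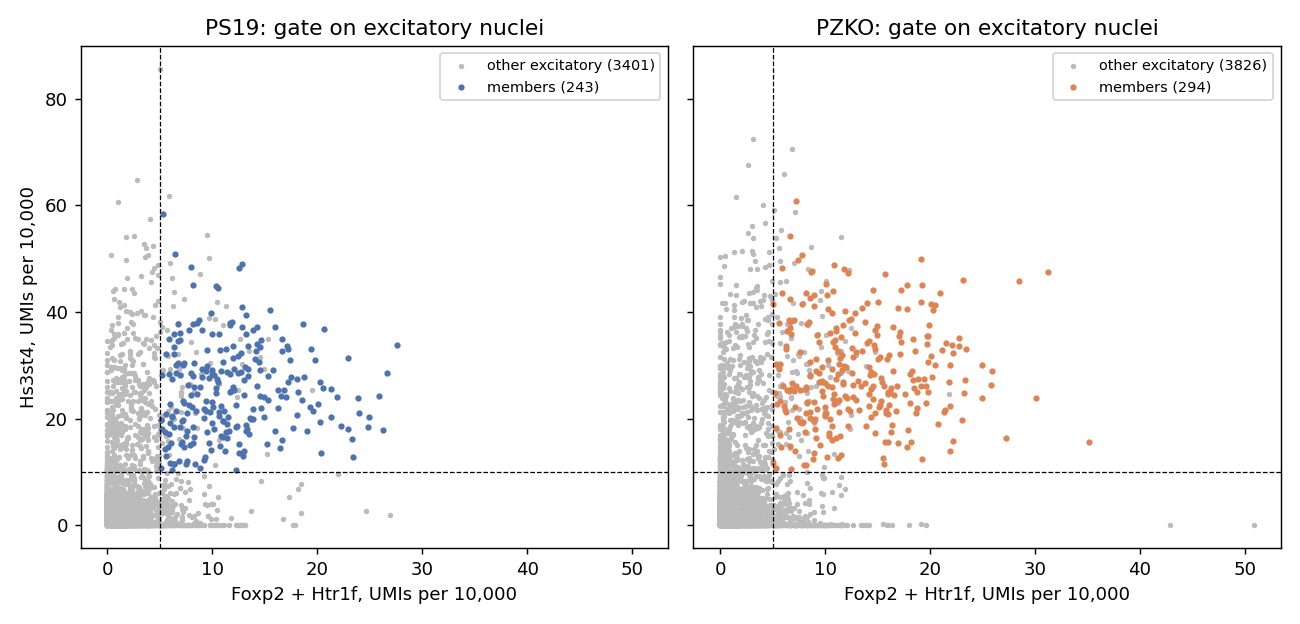
Each point is an excitatory nucleus, with Foxp2 and Htr1f UMIs per 10000 on the horizontal axis and Hs3st4 UMIs per 10000 on the vertical axis, in PS19 (left) and PZKO (right). Dashed lines mark the limits of 5 and 10, coloured points are the 243 and 294 selected nuclei, and grey points beyond both lines are nuclei removed for Tshz2.

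The label of deep-layer neurons was set against 14 genes of layer 6 corticothalamic neurons that the selection did not use. The list was chosen with earlier results of these data known, so its levels are a description and not an independent check. The summed level of the 14 genes was 4760 CPM (a gene's UMIs scaled to a common total) in PS19 and 5147 CPM in PZKO. It was 1594 and 1671 CPM in the other excitatory nuclei. The median gene of the list was higher than in other excitatory nuclei by 1.96 on the log2 scale in PS19 and by 2.04 in PZKO, and 13 of the 14 genes were higher in both libraries. Over all 15005 genes, 4.15% were at least 1.5-fold higher in the selected nuclei than in other excitatory nuclei in both libraries, and 13.8% were at least 1.5-fold lower. That limit is stricter than the one for the 13 genes, so these shares are not a matched background for that count. After thinning each nucleus to 3000 UMIs, 98.8% of PS19 and 99.0% of PZKO nuclei held at least 3 UMIs of the list. The same share was 76.3% and 75.3% of other excitatory nuclei and 36.4% and 38.9% of oligodendrocyte-type nuclei, a type that should lack most of these genes, where median depths before thinning were 4350.5 and 5206 UMIs.

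Syt6 stood out most. This synaptotagmin (chromosome 3, 103575231 to 103645569) was at 81.7 CPM in PS19 and 78.9 CPM in PZKO, against 5.78 and 6.54 CPM in other excitatory nuclei, which is a log2 difference of 3.82 and 3.59. Col5a1, a fibrillar collagen chain, was at 89.6 and 102 CPM against 7.39 and 10.9 CPM. Tle4, a transcriptional corepressor, was at 634 and 621 CPM against 181 and 154 CPM, and Tbr1, which represses the subcortical projection programme of layer 5, was at 63.8 and 49.3 CPM against 15.3 and 13.8 CPM. Ntng2, a netrin-G adhesion protein, was the exception, at 5.63 and 4.57 CPM against 44.7 and 52.1 CPM in other excitatory nuclei.

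**Figure D2:**
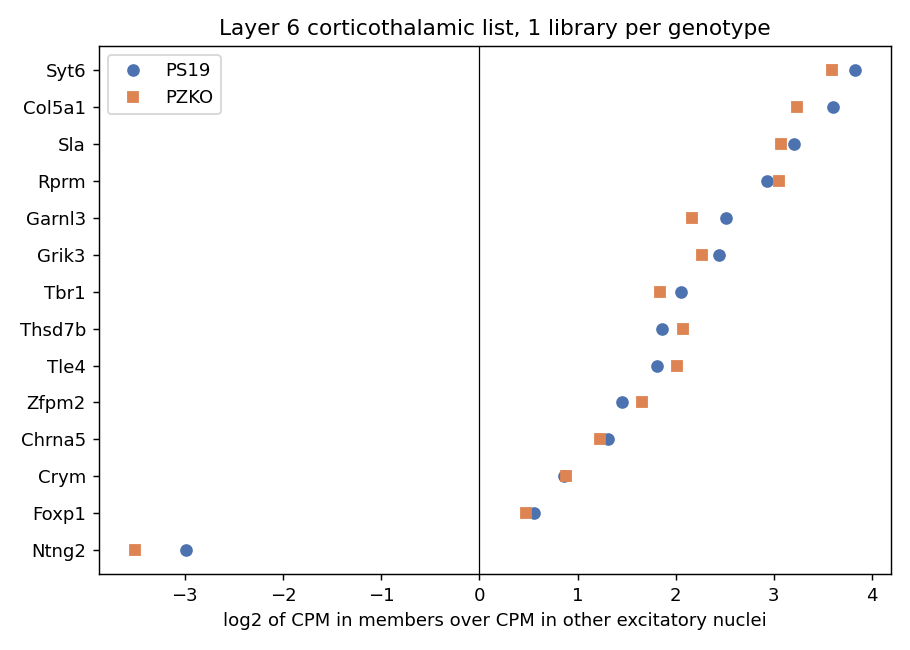
The horizontal axis is the log2 ratio of the level in selected nuclei to the level in other excitatory nuclei, for the 14 genes of the layer 6 corticothalamic list, with circles for PS19 and squares for PZKO. Syt6 lies at 3.82 and 3.59, and Ntng2 alone lies below 0.

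Among genes with at least 200 UMIs in each library, list members included, those highest over other excitatory nuclei in both libraries were Syt6, Col5a1, Arhgap25, Cdh18, Rai14, Sulf1, Grik3, Hs3st2, Ipcef1, Sdk2, Pdzrn4 and Garnl3. Cdh18, a type II cadherin, was at 2343 and 2504 CPM against 272 and 301 CPM. Grik3, a kainate receptor subunit, was at 369 and 461 CPM against 67.9 and 95.6 CPM. The heparan sulfate genes Hs3st2, a sulfotransferase of the same family as Hs3st4, and Sulf1, which removes 6-O sulfate outside the cell, were higher by 2.43 and 2.41 on the log2 scale in PS19 and by 2.26 and 2.71 in PZKO. At the other end, below other excitatory nuclei, lay Tafa1, Epha6, Maml2, Lingo2, Hs6st3 and Tafa2. Tafa1, a secreted chemokine-like protein, was at 138 and 110 CPM against 1167 and 1142 CPM, and Epha6, a receptor for ephrin A ligands, was at 272 and 237 CPM against 2004 and 1768 CPM. The Tafa1 level rested on few nuclei. Over both libraries, sub-cluster 6, described below, held 1587 of its UMIs at 1041 CPM, and the remaining selected nuclei were at 5.18 CPM.

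The selected nuclei were also set beside Tshz2-high excitatory nuclei, 607 in PS19 and 1025 in PZKO. Over them, 3.79% of 10906 genes were at least 1.5-fold higher in the selected nuclei in both libraries and 7.23% at least 1.5-fold lower. The corticothalamic list summed to 2176 and 2219 CPM there, and Syt6 was at 5.06 and 3.0 CPM, a log2 difference of 4.01 and 4.72. Tle4 was higher in the selected nuclei by 1.17 and 1.46 and Foxp1, a forkhead partner of Foxp2, by 0.53 and 0.46.

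Genes of interneurons and of upper cortical layers were below their level in other excitatory nuclei, and genes of striatal medium spiny neurons, another type that makes Foxp2, were above it. Interneuron genes summed to 46.2 CPM in PS19 and 42.9 CPM in PZKO, against 670 and 556 CPM in other excitatory nuclei, although Gad1 and Gad2 of that list were limited by the selection. Upper layer genes summed to 105 and 107 CPM against 339 and 412 CPM, and after thinning 0 of 243 PS19 nuclei (exact 95% interval up to 1.51%) and 2 of 294 PZKO nuclei held at least 3 of their UMIs. Striatal genes summed to 770 and 920 CPM against 617 and 798 CPM, and after thinning 36.2% of PS19 and 44.9% of PZKO nuclei held at least 3 of their UMIs, against 24.3% and 33.3% of other excitatory nuclei and 0.781% and 0.818% of oligodendrocyte-type nuclei. Pde10a, a phosphodiesterase, gave 3660 of the 3971 striatal UMIs in PS19 and 7342 of 7854 in PZKO, while the dopamine receptor gene Drd1 was at 7.37 and 5.97 CPM and Drd2 had 1 and 4 UMIs. The CA1 list summed to 1058 and 1093 CPM and the CA3 list to 1071 and 947 CPM, led by Pex5l and Spock1. Both lists were as high or higher in oligodendrocyte-type nuclei, at 2882 and 3082 CPM for CA1 and 1070 and 1191 CPM for CA3, so these sums do not set hippocampal neurons apart. The subiculum list, at 14.5 and 25.5 CPM in oligodendrocyte-type nuclei, was at 184 and 126 CPM in the selected nuclei against 161 and 193 CPM in other excitatory nuclei. Most of it was Cntn6, an adhesion protein, and after thinning 4.12% and 4.08% of the selected nuclei held at least 3 of its UMIs, against 4.76% and 6.04%. The tissue is labelled hippocampus and the data hold no position, so whether these nuclei lay in neocortex beside the dissected hippocampus was not tested.

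The 537 nuclei were clustered together into 9 sub-clusters by Leiden clustering of their expression. Outside sub-clusters 6 and 8 the corticothalamic list summed to between 4436 and 6302 CPM. Sub-cluster 2 had the most Foxp2, at 924 CPM in PS19 and 1022 CPM in PZKO, and was led by C7, Lamp5, Chn2 and Sema3a, the last a repulsive axon guidance cue. Sub-cluster 1, the largest in PS19 with 25.9% of nuclei (20.5 to 31.9) against 20.4% (16.0 to 25.5) in PZKO, carried Hcrtr2, an orexin receptor, at 74 and 78 CPM. Sub-cluster 3 was led by Cpa6, a carboxypeptidase, and held 11.5% (7.79 to 16.2) of PS19 and 19.7% (15.3 to 24.7) of PZKO nuclei. Sub-clusters 1 and 3 did not stay apart at equal depth: with each nucleus thinned to 3000 UMIs, 71 nuclei of sub-cluster 1 and 70 of sub-cluster 3 fell into 1 cluster and 47 others of sub-cluster 1 into another. These counts are over both libraries together. Depth differed between the libraries, and its part in the shares of each genotype was not tested.

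Sub-cluster 4 was nearly without Syt6, at 0 CPM in PS19 and 7 CPM in PZKO, and low in Foxp2, at 161 and 189 CPM, while Thsd7b stood at 2060 and 2239 CPM. Its leading genes included Nnat, an imprinted proteolipid of the endoplasmic reticulum, and Cobll1, and Nr4a2, an orphan nuclear receptor of layer 6b and claustrum, was at 281 and 265 CPM. It held 9.47% (6.09 to 13.9) of PS19 and 16.0% (12 to 20.7) of PZKO nuclei. Sub-cluster 5 was layer 6b-like: Moxd1, Pappa2, Ccn2 and Cplx3 were among its 10 leading genes. Nr4a2, Rxfp1 and Hcrtr2, also on the layer 6b list, were higher elsewhere. They were at 63 and 144, 73.7 and 139, and 63 and 7.14 CPM in sub-cluster 5. Rxfp1 was at 208 and 411 CPM in sub-cluster 4, and Hcrtr2 is given above for sub-cluster 1. The whole list summed to 682 and 737 CPM in sub-cluster 5 and to 570 and 800 CPM in sub-cluster 4. The subiculum list of sub-cluster 5 was at 495 and 301 CPM. Ccn2, a matricellular growth factor, was at 192 CPM in PS19 and 156 CPM in PZKO there, and between 0 and 23 CPM elsewhere. Layer 6b-like nuclei were 9.47% (6.09 to 13.9) of PS19 and 8.50% (5.58 to 12.3) of PZKO nuclei. In the clustering of thinned nuclei the layer 6b-like shares were 9.47% in PS19 and 12.2% in PZKO. Both lay within these intervals, but PZKO then had the higher share, so the order of the genotypes depended on the processing. Sub-cluster 7 was led by Sntb1, Sema3d, Rorb and Vwc2l, with Rorb, a nuclear receptor better known from layer 4, at 448 and 509 CPM, and held 10.3% (6.77 to 14.8) of PS19 and 4.08% (2.13 to 7.02) of PZKO nuclei. The sub-clusters were made from the same expression values, so their leading genes are a description, and shares between genotypes rest on 1 library each.

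**Figure D3:**
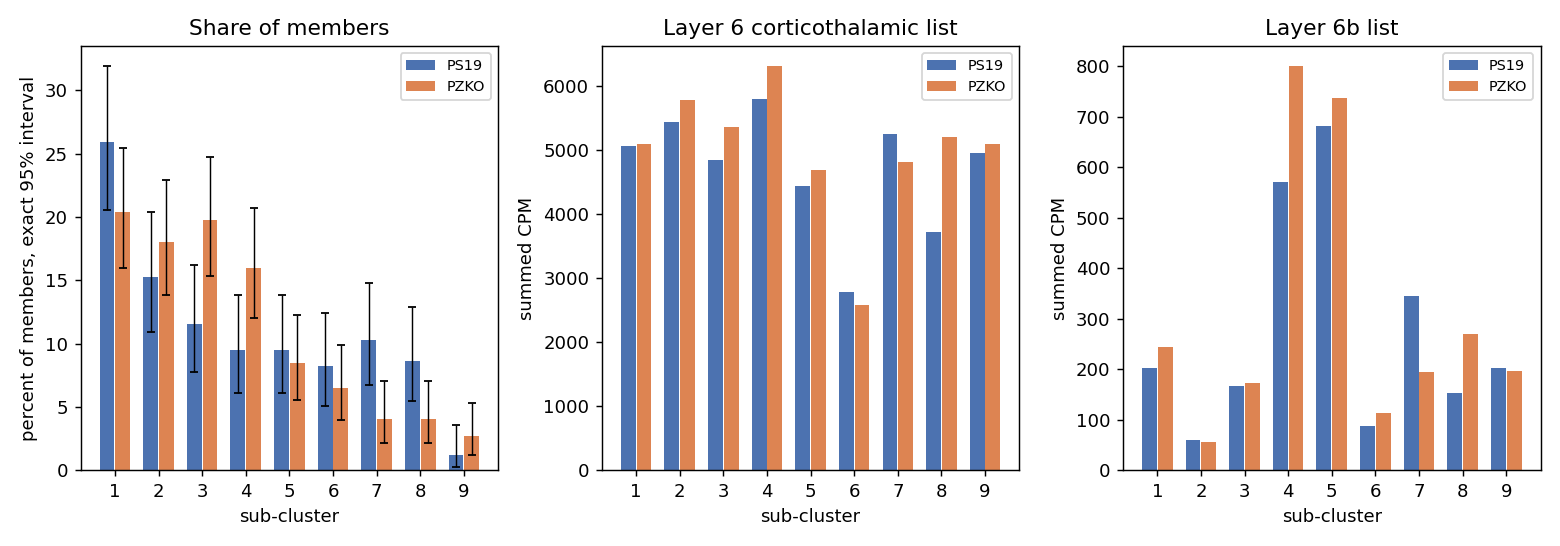
The left panel gives the percent of selected nuclei in each of 9 sub-clusters with exact 95% binomial intervals (counting error only), and the other panels give the summed CPM of the layer 6 corticothalamic and layer 6b lists, in PS19 (blue) and PZKO (orange). Sub-clusters 4 and 5 have the most layer 6b RNA, and sub-cluster 6 has the least corticothalamic RNA.

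RNA of other cells was found in several sub-clusters. Sub-cluster 5 had Slco1a4 and Flt1, genes of blood vessels, among its 10 leading genes. Its vascular list was at 106 CPM in PS19 and 17.1 CPM in PZKO, and its oligodendrocyte precursor list at 657 and 705 CPM against 69.8 to 157 CPM in sub-clusters 1 to 4 and 7 and 337 and 1108 CPM in sub-cluster 6. Of its nuclei, 6 of 23 in PS19 and 1 of 25 in PZKO had high doublet scores, and it was kept in the smaller set used below. Sub-cluster 8, with 21 PS19 and 12 PZKO nuclei, was led by oligodendrocyte genes such as St18 and Mog, and its oligodendrocyte list summed to 3100 and 2236 CPM against 163 to 341 CPM in sub-clusters 1 to 7. Sub-cluster 9, with 3 and 8 nuclei, held microglial genes at 825 and 1101 CPM. Sub-cluster 6, with 20 and 19 nuclei, was led by Tafa1, Ntng1, Vav3 and Lgr5 and stays unnamed. Its corticothalamic list summed to 2779 and 2579 CPM, and in PZKO it held genes of the thalamus list at 459 CPM against 84 CPM in PS19. That list was at 734 and 863 CPM in oligodendrocyte-type nuclei, so its sum does not set thalamic neurons apart. In PS19 sub-cluster 6 held choroid plexus genes at 1048 CPM, against 85.8 CPM in PZKO and 122 to 654 CPM in the other PS19 sub-clusters. High doublet scores were the highest Scrublet scores of each library, up to an assumed number of doublets and not by Scrublet's own threshold. They fell on 17 and 9 nuclei of sub-cluster 8, 12 and 9 of sub-cluster 6, and all 3 and 8 of sub-cluster 9. Results between genotypes are given for all selected nuclei and also without sub-clusters 6, 8 and 9, which leaves 199 PS19 and 255 PZKO nuclei. Without them, the share of excitatory nuclei was 5.46% (4.75 to 6.25) in PS19 and 6.19% (5.47 to 6.97) in PZKO.

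Between genotypes most genes lay close together. Over 9908 genes with at least 100 UMIs, the median log2 ratio of PZKO over PS19 was -0.02, and the central 90% lay between -0.50 and 0.37. At least 1.5-fold lower in PZKO were 307 genes, 3.10% of those compared, and at least 1.5-fold higher were 144 genes, 1.45%. In other excitatory nuclei, which hold more UMIs, these shares were 4.50% and 2.85% of 17096 genes. In the selected nuclei without sub-clusters 6, 8 and 9, 280 of 9198 genes (3.04%) were lower and 100 genes (1.09%) higher by that limit. Over all alternatives the lower count ran from 67 to 1222 and the higher count from 47 to 618. The identity genes showed little difference: the corticothalamic list had a median ratio of 0.02, with 7 of 13 genes above 0 and none past 1.5-fold in either direction. Tle4 differed by -0.03 (-0.09 to 0.03) and Zfpm2, a cofactor of GATA factors, by 0.02 (-0.02 to 0.06). The largest ratios of the list were Thsd7b at 0.39 (0.33 to 0.45) and Tbr1 at -0.37 (-0.58 to -0.16). In the layer 6b list, 8 genes were compared, with a median of 0.03, and Rxfp1, the relaxin receptor, was 1.5-fold or more higher in PZKO, at 76.1 CPM in PS19 and 122 CPM in PZKO. Its log2 ratio was 0.68 (0.51 to 0.85). Sub-cluster 4 held 85 of its 392 PS19 UMIs and 557 of its 1041 PZKO UMIs, at 208 and 411 CPM, and outside that sub-cluster, whose share of nuclei was 9.47% and 16.0%, Rxfp1 was at 64.7 and 67.4 CPM, a ratio of 0.06 (-0.15 to 0.27).

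Zbp1 itself could not be compared, since each library held 1 Zbp1 UMI in these nuclei. A reading of the knockout from these nuclei was therefore not possible at this depth. Mouse Mapt, which encodes endogenous tau, was at 417 CPM in PS19 and 400 CPM in PZKO, a log2 ratio of -0.06 (-0.14 to 0.02). Prnp, whose promoter drives the transgene, was at 217 and 181 CPM, a ratio of -0.26 (-0.37 to -0.15). Of 19 genes for tau, prion protein and tau kinases and phosphatases, none was past 1.5-fold, and the median was 0.06. Over all genes compared, 1.45% were at least 1.5-fold higher and 3.10% at least 1.5-fold lower.

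Several activity-regulated genes were higher in PZKO. Immediate early genes are transcribed within minutes of synaptic input and calcium entry. Of 13 compared, 8 were above 0, 4 were at least 1.5-fold higher and 1 was at least 1.5-fold lower, with a median of 0.34. Over all genes compared, 46.6% were above 0, 1.45% at least 1.5-fold higher and 3.10% at least 1.5-fold lower. Arc, which acts at dendritic spines on AMPA receptor uptake, was at 26.0 CPM in PS19 (134 UMIs) and 53.2 CPM in PZKO (454 UMIs), a log2 ratio of 1.03 (0.75 to 1.32). Fos was at 8.92 and 17.8 CPM, a ratio of 1.0 (0.51 to 1.5), Egr3 at 21.5 and 39.6 CPM, a ratio of 0.88 (0.56 to 1.20), and Nr4a3 at 19.2 and 32.4 CPM, a ratio of 0.76 (0.42 to 1.10). Jun went the other way, at 17.3 and 8.43 CPM, a ratio of -1.03 (-1.5 to -0.57). Arc UMIs were spread over 70 PS19 and 139 PZKO nuclei, with 26.9% and 15% of them in the 5 richest nuclei. Thinned to 3000 UMIs, Arc was found in 6.17% of PS19 and 11.9% of PZKO nuclei, against 3.55% and 2.86% of oligodendrocyte-type nuclei.

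The ratios were as large without sub-clusters 6, 8 and 9, at 1.18 for Arc, 1.42 for Fos, 1.06 for Egr3 and 0.93 for Nr4a3. Among the 12 highest ratios of that smaller set were Arc, Egr3, Nr4a3, Homer1 and Pcsk1, the last a prohormone convertase at 1.05 (0.81 to 1.29). Homer1, a postsynaptic scaffold with a short activity-induced form, was at 334 and 487 CPM in all selected nuclei, a ratio of 0.54 (0.46 to 0.63), and 3' counts do not tell its forms apart. In other excitatory nuclei the median of the same 13 genes was 0.53, with ratios of 0.53 for Arc and 0.63 for Fos. Npas4, an activity-dependent transcription factor, was at 0.13 in the selected nuclei and 0.90 in other excitatory nuclei.

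**Figure D4:**
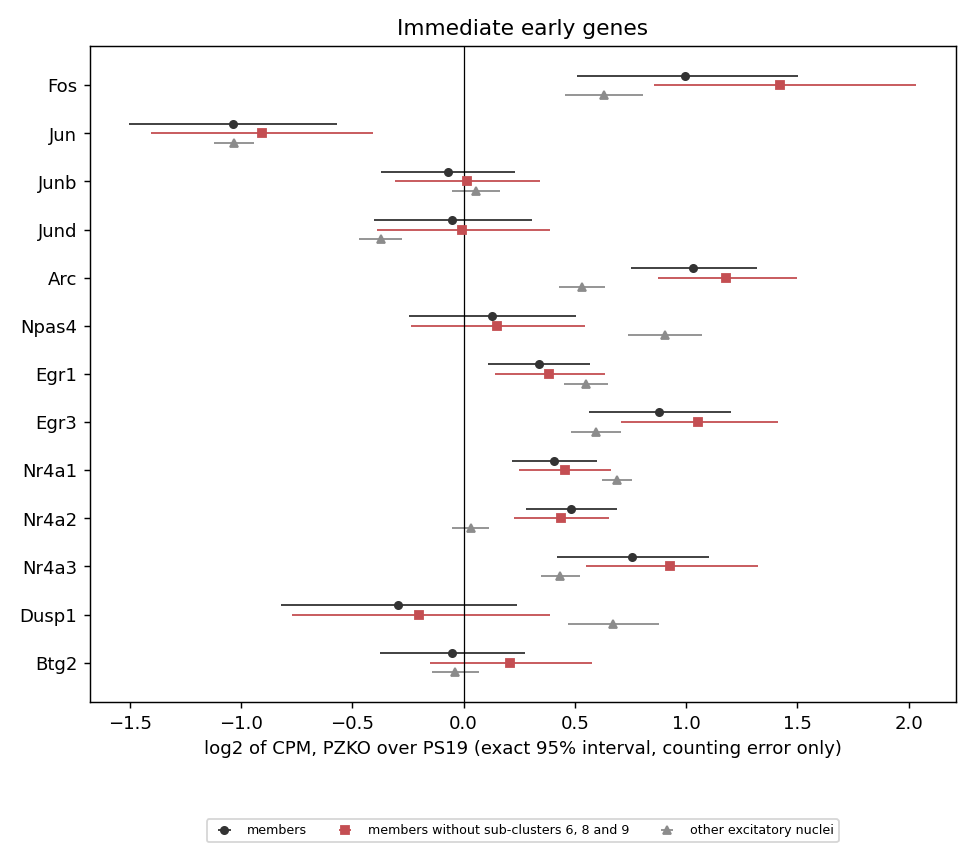
The horizontal axis is the log2 ratio of PZKO over PS19 with its exact 95% interval (counting error only), for the 13 immediate early genes with at least 100 UMIs, in all selected nuclei (black), without sub-clusters 6, 8 and 9 (red) and in other excitatory nuclei (grey). Arc, Fos, Egr3 and Nr4a3 lie above 0 in all 3 sets, and Jun lies below 0 in all 3.

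Synaptic gene lists had smaller medians than the immediate early list, and this difference was not tested. Of 22 glutamate receptor genes, 17 were above 0 against 46.6% of all genes, with a median of 0.09. The kainate receptor subunit gene Grik1 was the only one past 1.5-fold and is taken up below. Grik3 was at 0.32 (0.24 to 0.40) and Gria1, an AMPA receptor subunit, at 0.24 (0.19 to 0.30). Of 18 postsynaptic scaffold and kinase genes, 14 were above 0, with a median of 0.15: Dlg4, which encodes PSD-95, was at 0.45 (0.27 to 0.64), while Camk2d was at -0.69 (-0.90 to -0.48). Camk2d was on the other side of 0 in other excitatory nuclei, at 0.59. Of 23 heparan sulfate genes, 16 were above 0 and Gpc5 and Gpc6, both glypicans, were at least 1.5-fold higher, as were 1.45% of all genes. Both rested on few nuclei, with 84.1% of the 699 PZKO UMIs of Gpc5 and 75.1% of the 566 of Gpc6 in 5 nuclei. Without sub-clusters 6, 8 and 9 none of 20 heparan sulfate genes was past 1.5-fold, and Gpc5 was at 0.26 (-0.20 to 0.74). Hs3st2, at 174 and 242 CPM, had a ratio of 0.48 (0.36 to 0.59). GABA receptor genes had a median of 0.06, potassium and HCN channels 0.02, sodium and calcium channels 0.05, synaptic vesicle genes 0.01, cadherins and adhesion genes 0.02, axon guidance genes 0.05 and deep-layer transcription factors 0.05. Reported targets and partners of Foxp2 had a median of -0.06, and none of 12 was past 1.5-fold. Single genes lay further out: Unc13c, a vesicle priming factor, went from 17 to 176 UMIs and Htr7, a serotonin receptor, from 20 to 103. Of 4 serotonin receptor genes compared, 1 was above 0 and 3 were below, with a median of -0.20. Past 1.5-fold, 1 was higher and 1 lower. Neither Unc13c nor Htr7 was among genes with enough UMIs once sub-clusters 6, 8 and 9 were left out. Kirrel3, an adhesion protein of the immunoglobulin family, was at 0.98 (0.85 to 1.11) with these sub-clusters and at -0.64 without them, and Cdh7 at 1.22 and -0.44.

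Mitochondrial and ribosomal genes were lower in PZKO. Each of the 12 mitochondrially encoded messengers compared was at least 1.5-fold below its PS19 level in PZKO nuclei, as were 3.10% of all genes. The median was -0.84, with values from -0.61 for mt-Co1 to -1.23 for mt-Atp8. With nuclei held to at most 1% mitochondrial UMIs the median was -0.46. Mitochondrial RNA in a nucleus preparation comes with cytoplasm, and the median mitochondrial percent over all deposited nuclei was 0.579 in PS19 and 0.379 in PZKO. Its part in the result was not tested. All 37 ribosomal protein genes were below 0, against 53.4% of all genes, with a median of -0.33, and 2 were at least 1.5-fold lower, a share near the 3.10% of all genes. Of 31 nuclear genes of oxidative phosphorylation, 27 were below 0, with a median of -0.28. The same lists were below 0 elsewhere: in other excitatory, Tshz2-high and dentate-type nuclei the list medians were -0.62, -0.73 and -0.72 for mitochondrially encoded genes, -0.36, -0.43 and -0.43 for ribosomal protein genes, and -0.39, -0.45 and -0.45 for oxidative phosphorylation genes. Bc1, a short dendritic RNA that represses translation, was found in all 243 and all 294 nuclei, at 1884 CPM in PS19 and 861 CPM in PZKO, a ratio of -1.13 (-1.17 to -1.09), and other excitatory nuclei had -1.05.

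A pair of gene lists that the study drew from excitatory neurons of these same libraries was also counted, so their direction is not independent evidence. All 14 genes of the list lower in PZKO were below 0 here and 9 were past 1.5-fold, against 53.4% and 3.10% of all genes. Their median of -0.75 was -0.34 after subtraction of a scaled average profile of all nuclei of the library, used in place of measured ambient RNA. Among them were Cst3, a secreted protease inhibitor, at -1.0 (-1.14 to -0.86), Apoe at -0.78 (-0.93 to -0.63) and Mt1, a metal-binding stress protein, at -1.32 (-1.58 to -1.07). Apoe and Cst3 are most abundant in glia, and thinned to 3000 UMIs Apoe was found in 35% of PS19 and 20.7% of PZKO selected nuclei, against 87.2% and 73.5% of oligodendrocyte-type nuclei. Of 19 genes in the list higher in PZKO, 16 were above 0, 3 were at least 1.5-fold higher and 1, Camk2d, was at least 1.5-fold lower, beside 46.6%, 1.45% and 3.10% of all genes, with a median of 0.13 against 0.57 in other excitatory nuclei.

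RNA of other tissues differed between the libraries in the same nuclei. Ttr, the transthyretin of choroid plexus, had the lowest ratio of all, at 199 CPM in PS19 and 19.7 CPM in PZKO, a log2 ratio of -3.34 (-3.59 to -3.10). It was as different in other excitatory nuclei, at 199 and 22.0 CPM. The 7 choroid plexus genes summed to 347 CPM in PS19 and 70.1 CPM in PZKO, led by Ttr in PS19 and by Enpp2 in PZKO, where Folr1 was at 0. Oligodendrocyte genes summed to 393 and 318 CPM, led by Mbp, microglial genes to 85.0 and 82.0 CPM, and astrocyte genes to 931 and 889 CPM, of which Slc1a2, also made by excitatory neurons, was the main part. By gene, the astrocyte list had a median ratio of -0.68 and the oligodendrocyte list one of -0.61, and 4 of 7 and 5 of 8 of their genes were at least 1.5-fold lower in PZKO, against 3.10% of all genes. Without sub-clusters 6, 8 and 9 these were 2 of 5 and 0 of 4, with medians of -0.21 and -0.0025. Over all alternatives the astrocyte median ran from -0.68 to 0.054 and the oligodendrocyte median from -0.83 to 0.14. Oligodendrocyte, microglial and choroid plexus genes stood in the selected nuclei at a median of 21.8% and 22.7% of their level in the whole library. Their part in the ratios of glial genes was not tested.

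The highest ratios of all selected nuclei belonged to Synpo2, Lypd6b, Grik1, Megf11, Alk, Nhs, Zfp423, Tcf7l2, Vav3, Stxbp6, Nxph1 and Zfhx3. For 10 of these 12 genes, between 68.2% and 83.7% of the PZKO UMIs lay in 5 nuclei, while for Nhs and Zfhx3 the share was 45.5% and 46.3%. Zfhx3, a zinc finger homeobox factor, was found in 115 PS19 and 173 PZKO nuclei, and without sub-clusters 6, 8 and 9 its ratio of 1.36 was 0.38 and that of Nhs 1.46 (0.93 to 2.02). Synpo2, an actin-binding protein, was at 1.75 CPM in PS19 (9 UMIs) and 24.6 CPM in PZKO (210 UMIs), a ratio of 3.82 (2.86 to 4.96), and 81.4% of its PZKO UMIs lay in 5 nuclei. For Grik1 that share was 83.7% of 306 UMIs, and for Nxph1, a neurexin ligand, 73.7% of 1075. Sub-cluster 6 held 177 of the 210 Synpo2 UMIs and 980 of the 1075 Nxph1 UMIs of PZKO. Without sub-clusters 6, 8 and 9, Synpo2 was at 1.48 (0.27 to 2.90), Grik1 at -0.30 (-1.75 to 1.22) and Nxph1 at -1.71 (-2.10 to -1.33). Tcf7l2 and Synpo2 belong to the thalamus list, and Slc17a6, the glutamate transporter of thalamic relay neurons, was at 90 CPM in PZKO nuclei of sub-cluster 6 against 5 CPM in PS19. In oligodendrocyte-type nuclei Tcf7l2 was at 123 and 143 CPM and Synpo2 at 15.7 and 11.6 CPM.

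The lowest ratios were Ttr, Gm11867, Trpm3, Htr2c, Enpp2, Gm19951, Gm32647, Pdzrn3, Bc1, Mt1, Strip2 and mt-Atp8. Trpm3, a heat-activated channel also strong in choroid plexus, was at 248 and 70.8 CPM, a ratio of -1.81 (-1.95 to -1.67), but 60.1% of its PS19 UMIs lay in 5 nuclei, and without the 3 sub-clusters the ratio was 0.30 (0.07 to 0.53). Htr2c, a serotonin receptor, was at 123 and 44.0 CPM, with 71.0% of the PS19 UMIs in 5 nuclei, and its ratio of -1.48 was -0.81 without the 3 sub-clusters. With Foxp2 alone in the selection, the Htr2c ratio reversed its direction. Bc1, Gm11867 and Ttr were at -1.12, -2.04 and -3.09 without the 3 sub-clusters. Gm11867 was found in 201 PS19 and 173 PZKO nuclei, and Ttr in 223 and 129.

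**Figure D5:**
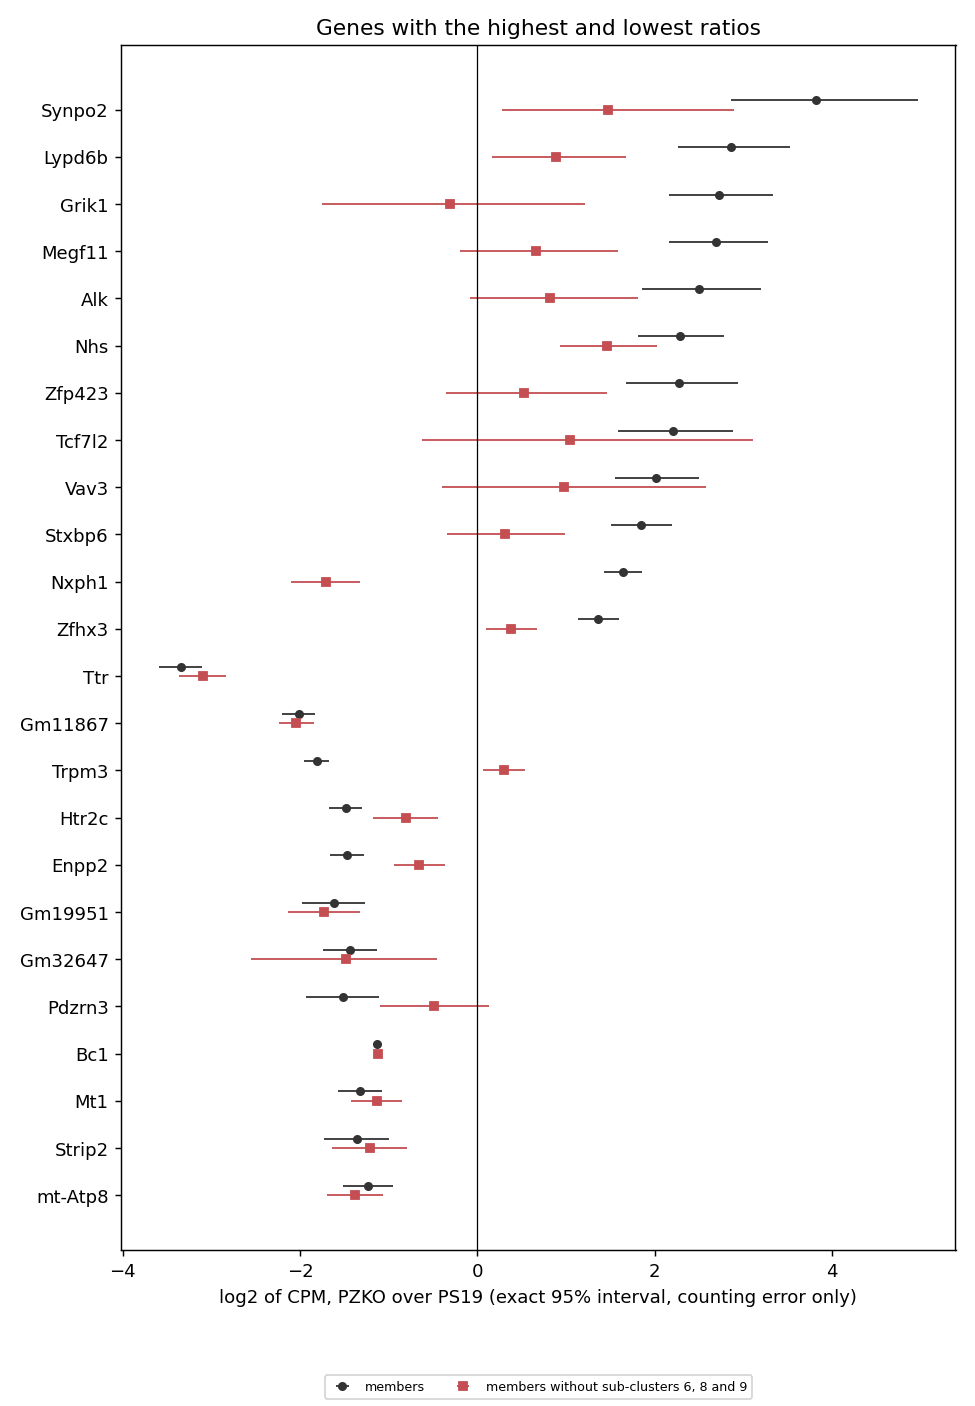
The horizontal axis is the log2 ratio of PZKO over PS19 with its exact 95% interval (counting error only), for the 12 genes with the highest and the 12 with the lowest ratio, in all selected nuclei (black) and without sub-clusters 6, 8 and 9 (red). Nxph1 and Trpm3 change sides, and Grik1 crosses 0, while Ttr, Gm11867 and Bc1 hardly move.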

How the data were processed

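Single nuclei were isolated by the submitters from pooled hippocampi and sequenced with 10x Genomics 3′ chemistry, 1 library per genotype. The deposited values are raw UMI counts per gene and nucleus, mapped by the authors to mm10 with Cell Ranger (7.0.1 in the submitters' processing notes, 8.0.1 in the matrix headers). The authors' later removal of ambient RNA and doublets is not in these counts. The libraries hold 116488513 (PS19) and 171167884 (PZKO) UMIs. The study's methods describe the hippocampi of each genotype both as handled animal by animal and as pooled for sequencing. The labels call them pooled, and each genotype was treated as 1 sample.

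Nuclei were chosen by the rule in the results. The members and the gene lists were chosen with earlier results of these data known. UMIs were summed over selected nuclei and divided by their total (CPM). Log2 ratios carry exact conditional binomial (Clopper-Pearson) 95% intervals. A gene at 0 in a library was set to a floor of 3 counts. A gene outside the rule was compared where the libraries together gave it 100 UMIs or more, and a 1.5-fold limit was used for counts. No test was made, since each group is 1 library. Named genes were the genes of the rule, the fixed lists, the 12 highest and 12 lowest ratios (by the interval's end nearest to 0) and the 5 largest and 5 smallest differences from the ratio in other excitatory nuclei, with a minimum of 200 UMIs, the 12 genes highest and 6 lowest over other excitatory nuclei, and Zbp1, Mapt and Prnp. Pcsk1, Homer1 and the other genes of the smaller set follow the same ranking, repeated without sub-clusters 6, 8 and 9, a set chosen after the data were seen.

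Sub-clusters came from 1000 variable genes, 15 principal components, 15 neighbours and Leiden clustering at resolution 0.5 (scanpy 1.11.5, leidenalg 0.10.2). Doublets were not removed from the main set. Scrublet's own threshold marked 2 PS19 and 0 PZKO nuclei and was not used, and the highest scores were taken instead at 0.8% per 1000 nuclei, 1052 and 954 nuclei. Gene positions are from GENCODE M21. Values of some single genes are not reported here. The calculation of ratios and intervals was checked on simulated counts drawn independently for each gene, as the intervals assume. Those counts do not gather in a few nuclei as some real ones do. The check therefore does not show how well the intervals hold for these data. Alternatives used edgeR 4.0.16 and DESeq2 1.42.0 only for scaling factors.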

Additional observations from a re-analysis of the deposited data

Results flagged for a closer look

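Among genes named for their ratio, for a difference of ratios or for their level over other excitatory nuclei, there were 6 whose ratio of PZKO over PS19 lay on opposite sides of 0 in the selected nuclei and in other excitatory nuclei, with counting intervals clear of 0 in both, and none of these differences between sets was tested because each genotype is 1 library. Genes of the rule, and genes named only as members of a list, were not counted, although Camk2a, Htr1f, Prox1 and Camk2d also lay on opposite sides. The difference of the log2 ratios was 2.42 for Stxbp6, -2.31 for Pdzrn3, 0.30 for Sulf1, -1.41 for 4930598N05Rik, -1.39 for Pcdh15 and -1.33 for Pamr1. All but Sulf1 were among the genes named for their difference of ratios. That choice favours opposite sides, so the count of 6 is a description. Pcdh15, a protocadherin known from hair cells, was at 515 CPM in PS19 and 349 CPM in PZKO selected nuclei, and at 422 and 747 CPM in other excitatory nuclei. Its ratio without sub-clusters 6, 8 and 9 was -0.63 (-0.72 to -0.55). Pamr1 and 4930598N05Rik also stayed below 0 without them, at -0.67 (-0.97 to -0.37) and -0.68 (-1.08 to -0.29). For Stxbp6 and Pdzrn3 the intervals then held 0, at 0.31 (-0.34 to 0.99) and -0.49 (-1.10 to 0.13).

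The immediate early list had a median of 0.34 over 13 genes in the selected nuclei and of -0.74 over the 6 genes with enough UMIs in dentate-type nuclei. The difference of 1.07 was not tested, and it sets unlike genes side by side: over the 6 genes compared in both, Jun, Junb, Jund, Egr3, Nr4a2 and Btg2, the medians were -0.05 and -0.74, on the same side of 0. Jun was lower in PZKO in both, at -1.03 and -0.83, while Egr3 was at 0.88 in selected nuclei and -0.64 in dentate-type nuclei.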

How the results depend on the processing

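Of 39 list medians, 24 stayed within their counting interval under each alternative that gave them a value, which was 10 to 13 alternatives a list, and 441 of 469 alternative values did so. Scaling by edgeR or DESeq2 factors left every list median, and each of 47 named genes tried, within its interval. Other settings moved single genes out of it: 27 with Foxp2 alone and 23 with stricter limits (1 more reversed in the first), 16 after ambient subtraction, 14 each without high doublet scores and at most 1% mitochondrial UMIs, 13 each after thinning (of 26 with a value) and by the mean over nuclei, and 10 each without sub-clusters 6, 8 and 9 (2 more reversed) and with equal sub-cluster weights. The 144 genes at least 1.5-fold higher became 47 after thinning to 3000 UMIs, 618 with a minimum of 20 UMIs and 355 after subtracting ambient RNA, and the 307 lower became 67, 1222 and 486, and 170 when Foxp2 alone was used in the selection. Fewer UMIs or more sparse genes enter those counts. With a minimum of 20 UMIs the near-projecting median of 0.42 became -0.51, CA3 -0.23 from -0.11, thalamus -0.095 from 2.21 and striatal genes -0.071 from 0.22. After subtracting ambient RNA the near-projecting median was 0.94, astrocyte -0.046 from -0.68, microglia 0.96 from -0.04, cadherins -0.083 from 0.02 and the study's lower list -0.34 from -0.75. With Foxp2 alone the near-projecting median was 1.11, CA1 -0.091 from 0.03, CA3 -0.25, astrocyte 0.054, scaffolds -0.0021 from 0.15 and Htr2c 1.04 from -1.48. The share of excitatory nuclei was then 2.85% in PS19 and 3.71% in PZKO, and the corticothalamic level in PZKO 1.76. With the stricter limits of 10 and 20 per 10000 the shares were 2.91% and 4.13%, the corticothalamic level in PZKO 1.89, astrocyte -0.15 and interferon genes -0.013 from -0.38. Without sub-clusters 6, 8 and 9 the near-projecting median was -1.21, CA3 -0.0082, astrocyte -0.21, oligodendrocyte -0.0025 from -0.61, the corticothalamic level in PS19 2.08, Nxph1 -1.71, Trpm3 0.30 and the shares 5.46% and 6.19%. Without high doublet scores astrocyte was -0.14 and oligodendrocyte 0.14. Thinning gave CA1 0.22, CA3 -0.20 and neurotrophins 0.24 from 0.04. The mean over nuclei gave dentate genes -0.86 from -0.38, and at most 1% mitochondrial UMIs gave thalamus 1.25 and mitochondrial genes -0.46 from -0.84. Without sub-cluster 4, also chosen after seeing the data, Rxfp1 was 0.06 from 0.68. The causes were not tested. No paired analysis was possible because each genotype has 1 library, and none could be left out.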

Other observations

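The promoters of the immediate early genes were searched for letters of 2 known response elements, chosen after the ratios were seen. RefSeq promoters of 14 of the 18 listed genes were matched (GRCm38.p6, 250 bases before to 50 after the start), and either strand was read. The cyclic AMP response element TGACGTCA was found in 2 of the 14, Btg2 and Dusp1, and in 2.03% of the promoters of 27025 genes. The serum response element, read in 1 exact spelling, was found in none of the 14, and in 0.0777% of all. No other motif was searched. Neither gene with a match was past 1.5-fold in the selected nuclei, with Btg2 at -0.05 (-0.37 to 0.28) and Dusp1 at -0.29 (-0.82 to 0.24). The stretches around both matches are shown 5′ to 3′ on the gene's strand, with the matched letters in capitals, from chr1:134079294-134079341 (Btg2, minus strand) and chr17:26508588-26508635 (Dusp1, minus strand).
Btg2: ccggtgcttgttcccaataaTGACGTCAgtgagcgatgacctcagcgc
Dusp1: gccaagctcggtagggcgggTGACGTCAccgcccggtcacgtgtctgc

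Circadian genes held 2 of their larger values on opposite sides in the selected nuclei: Per1 was at 0.51 (0.20 to 0.83) and Dbp at -0.52 (-0.89 to -0.15), and the median of 16 genes was 0.05. Rorb, counted in the same list, was at 72 CPM in PS19 and 41.5 CPM in PZKO, a ratio of -0.80 (-1.01 to -0.58), beside a share of Rorb-rich sub-cluster 7 of 10.3% and 4.08%. Among interferon-stimulated genes only 4 reached 100 UMIs, of which 2 were above 0 and 2 were at least 1.5-fold lower, beside 46.6% and 3.10% of all genes, with a median of -0.38. Ifi27 was at -0.81 and B2m, the light chain of MHC class I, at -1.10 (-1.58 to -0.63).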
